A study of Mus musculus with 6 samples.

Results

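Ribosome biogenesis genes encode the nucleolar machinery that makes ribosomes, and they were read here in neural stem cell cultures that overexpressed SETD4, which belongs to the lysine methyltransferases with a SET domain. Members were chosen by name: protein-coding genes whose symbols belong to the Nop, Utp, Rrp, Polr1, Imp, Gnl and related nucleolar families. The rule found 62 genes of 55802 in the tables, and it used no measured value. It also took in Polr1has, whose symbol marks it as antisense to Polr1h and which has no established place in the pathway. Polr1has lies on the opposite strand of chromosome 17 at 37269484 to 37276517. Its span does not overlap that of Polr1h, at 37265248 to 37269451. All 62 members reached a mean of at least 1 FPKM (fragments scaled by gene length and by library size) over the libraries, so none was lost to the filter on low values.

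In the nucleolus, RNA polymerase I transcribes a long precursor of the ribosomal RNAs. Small nucleolar ribonucleoproteins (snoRNPs) modify it, box C/D particles by methylation and box H/ACA particles by pseudouridylation, and large assemblies fold and cut it into the small (40S) and large (60S) subunits. Cells that grow and divide make many ribosomes, and resting neural stem cells of the adult brain are known for low protein synthesis.

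The 3 SETD4 OE libraries came from primary neural stem cells of the subventricular zone of adult C57BL/6 mice, infected with the adenovirus ADV-SETD4-GFP. The 3 control libraries came from the same kind of cells, of the genotype WT, infected with ADV-GFP. Both groups thus carried an adenovirus and green fluorescent protein, and the infection time in the labels was 24 h. The labels do not say which promoter drove SETD4, or whether the replicates came from separate cultures or animals, so the p-values measure only the spread between these libraries.

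Setd4 was at 296, 346 and 333 FPKM in SETD4 OE and at 0.952, 0.972 and 1.53 FPKM in control, which fits the labels; viral and endogenous reads are not separated. Whole reads recovered from the values summed to 14924273 to 16045138 per SETD4 OE library and to 16007182 to 18078717 per control library, and the members held from 67 to 15187 of them per gene and library. All 6 stem cell and astroglial markers were above 1 FPKM in every library, and they moved in both directions (Gfap higher and Nes lower in SETD4 OE). Of 6 microglial markers none reached a mean of 1 FPKM over the 6 libraries, and Cldn5, an endothelial marker, was listed at 0 in all 6 libraries. Control replicate 1 stood apart from the other controls, with 3.78% of its reads on mitochondrially encoded genes, against 2.45% in each of the other 2 controls and 3.52% to 3.73% in SETD4 OE.

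The ribosome biogenesis genes fell nearly throughout. In SETD4 OE 56 of the 62 members were lower than in control, 1 was higher and 5 did not pass the test (limma on log2(FPKM + 1), adjusted p under 0.05 over 12994 tested genes). Over all tested genes 33.9% were called lower and 26.0% higher, so the members' 90.3% stands against a background in which most genes moved. That background split depends on the scaling: 4406 lower and 3384 higher as reported became 3079 lower and 4514 higher with libraries set to equal sums without mitochondrial genes, where 54 members were lower and 1 higher. The median log2 fold change was -0.73 for the members and -0.06 for all tested genes, and 10.1% of all tested genes lay below the members' median. A change below -1 on the scale of log2(FPKM + 1), which shrinks the fold changes of low genes, was reached by 15 members. Of all tested genes, 4.78% were called lower with a change of that size.

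The summed level of the members was 897, 882 and 961 FPKM in SETD4 OE, against 1581, 1785 and 1670 FPKM in control. Every SETD4 OE library was therefore below every control library, and the mean sum in SETD4 OE was 54.4% of that in control. The sum over all tested genes in SETD4 OE was 90.8% of that in control. As a share of all recovered reads, the members held 0.341%, 0.340% and 0.355% in SETD4 OE, against 0.577%, 0.611% and 0.600% in control. The values are relative to a library size that they imply, which is not the sum of recovered reads. Recovered reads differed from that size by -5.04% to -3.69% in SETD4 OE and by 0.634% to 2.75% in control. This offset lowers SETD4 OE values against control, and the shares of recovered reads are free of it. Fewer cells of a type cannot be told apart from less RNA per cell in such cultures. For 56 members all 3 SETD4 OE values lay below all 3 control values, which held for 36.9% of all tested genes.

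**Figure D1:**
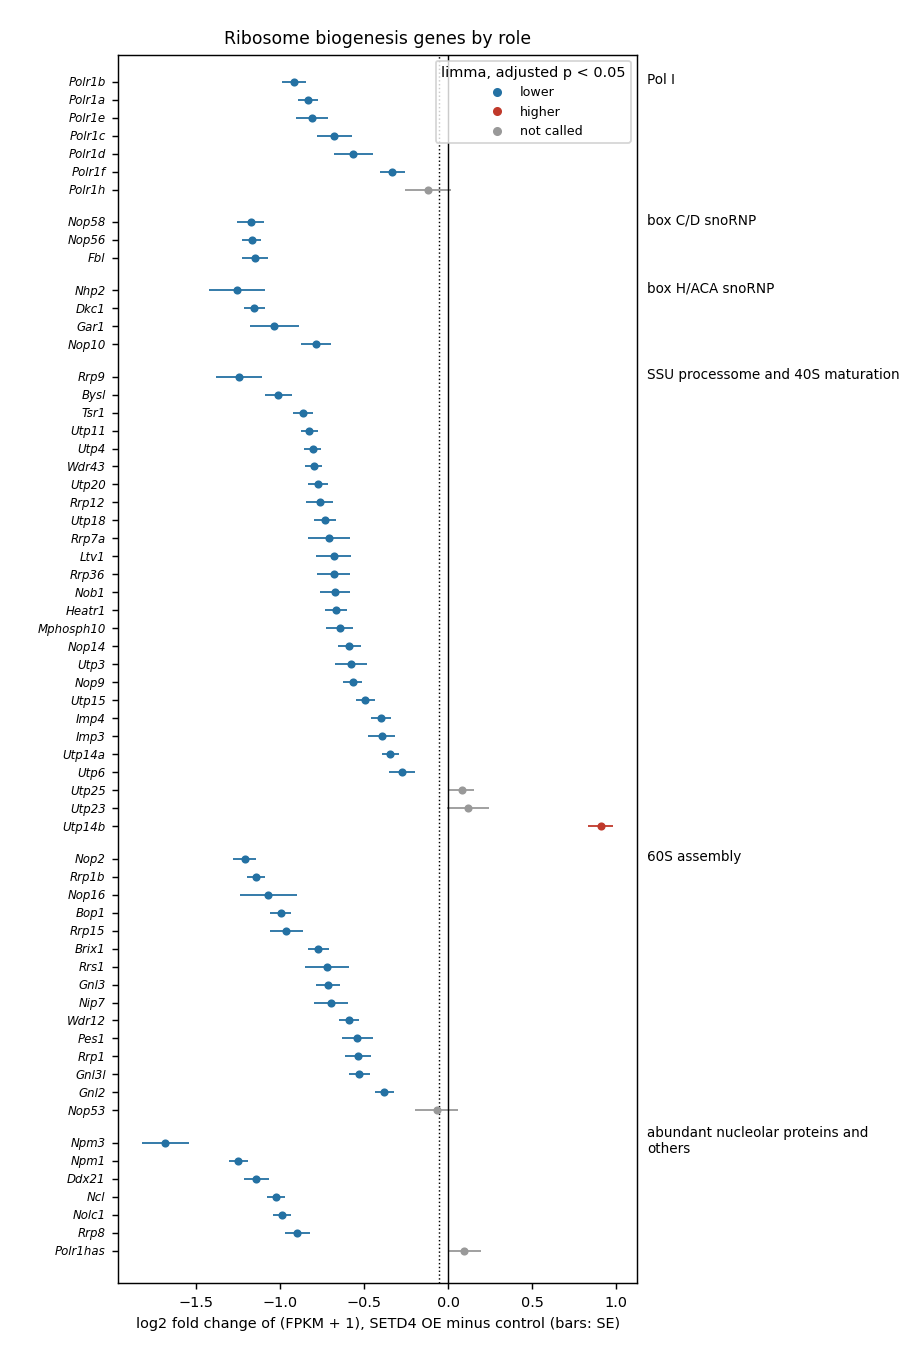
Log2 fold change of (FPKM + 1), SETD4 OE minus control, for each of the 62 members, grouped by role; bars are standard errors, the dotted line is the median of all tested genes, and colours give the limma call. Of the members, 56 are called lower, Utp14b is called higher, and 5 are not called.

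Genes of the most abundant nucleolar proteins had large falls. Npm1 encodes nucleophosmin, a chaperone of the granular part of the nucleolus (ENSMUSG00000057113, mm39 chromosome 11, 33102287 to 33113206, minus strand). It was at 93.8, 93.6 and 96.04 FPKM in SETD4 OE, against 232.5, 228.3 and 217.1 FPKM in control. The groups were far apart, with little spread within either (log2 fold change -1.25, SE 0.06, adjusted p = 5.454e-06, limma). Its smaller relative Npm3 (chromosome 19, 45736173 to 45738030) had the lowest log2 fold change of all members. Npm3 was at 15.4, 13.6 and 15.6 FPKM in SETD4 OE, against 42.1, 62.4 and 47.1 FPKM in control (log2 fold change -1.68, SE 0.14, adjusted p = 6.345e-05, limma). Control values of Npm3 differed more among themselves than those of Npm1, and the gene rested on 250 to 309 reads per SETD4 OE library.

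Ncl encodes nucleolin, an RNA-binding protein of the nucleolus that acts on the newly made precursor (chromosome 1, 86272441 to 86287122). It was at 39.4, 40.2 and 40.8 FPKM in SETD4 OE, against 79.7, 84.7 and 83.7 FPKM in control (log2 fold change -1.02, SE 0.05, adjusted p = 8.04e-06, limma). Ddx21, an RNA helicase gene, was at 20.6 ± 1.56 FPKM in SETD4 OE and 46.8 ± 2.68 FPKM in control, with a log2 fold change of -1.14. Nolc1, a chaperone of snoRNPs, and Rrp8, an rRNA methyltransferase, also fell, with log2 fold changes of -0.99 and -0.90. In this group 6 of 7 genes fell, and the exception was Polr1has, at 3.11 ± 0.264 FPKM in SETD4 OE and 2.85 ± 0.405 FPKM in control (adjusted p = 0.423, limma). Npm1 and Npm3 have processed pseudogene copies, and the rule for counting reads that match several places was not stated. The annotated copy Npm3-ps1 was listed at 0.196 ± 0.0648 FPKM in SETD4 OE and 0.424 ± 0.149 FPKM in control.

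Genes for the core proteins of box C/D snoRNPs fell, with 3 of them among the members. Fbl encodes fibrillarin, the methyltransferase of these particles, and was at 13.8, 14.1 and 14.6 FPKM in SETD4 OE, against 29.1, 35.1 and 34.3 FPKM in control. Nop56, a scaffold protein, was at 14.7, 13.7 and 15.1 FPKM in SETD4 OE, against 33.4, 34.4 and 33.9 FPKM in control. Its partner Nop58 was at 5.32, 6.03 and 6.06 FPKM in SETD4 OE, against 15.9, 13.8 and 13.4 FPKM in control. In each gene the lowest control was above the highest SETD4 OE library by a wide margin. The log2 fold changes were -1.15 for Fbl, -1.17 for Nop56 and -1.18 for Nop58, with adjusted p of 2.556e-05, 6.378e-06 and 2.693e-05 (limma). Snu13, a further core protein outside the naming rule, was at 23.6, 26.5 and 26.8 FPKM in SETD4 OE, against 52.2, 47.0 and 46.98 FPKM in control, with a log2 fold change of -0.90.

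All 4 core protein genes of box H/ACA snoRNPs fell as well. Dkc1 encodes dyskerin, the pseudouridine synthase, which is also part of telomerase. It was at 6.32, 6.61 and 7.28 FPKM in SETD4 OE, against 16.1, 16.7 and 15.8 FPKM in control (log2 fold change -1.15, SE 0.06, adjusted p = 1.078e-05, limma). Nhp2, which binds the H/ACA RNA, was among the highest members. It was at 49.0, 42.4 and 61.3 FPKM in SETD4 OE, against 102.7, 147.2 and 118.9 FPKM in control. Nhp2 varied by library in both groups without overlap between them (log2 fold change -1.26, SE 0.17, adjusted p = 0.0005907, limma). Gar1 and Nop10 complete the particle, with log2 fold changes of -1.04 and -0.79.

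**Figure D2:**
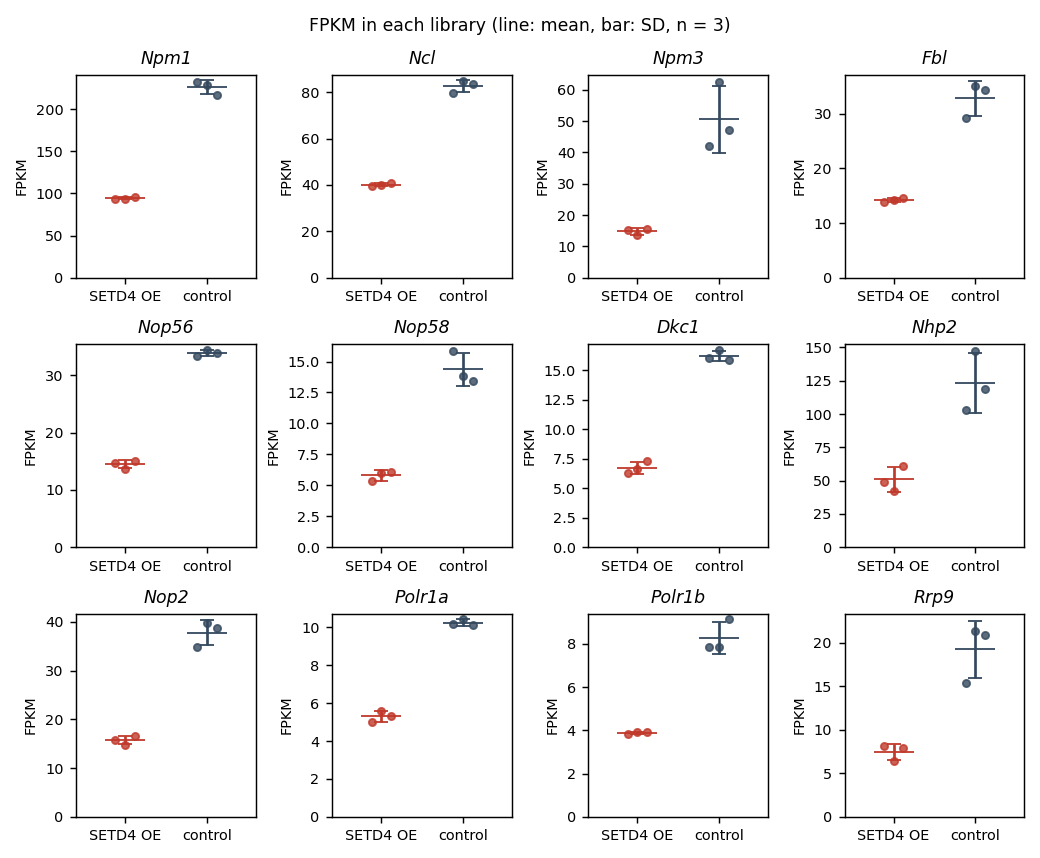
FPKM in each library for 12 members, SETD4 OE on the left and control on the right of each panel; points are libraries, the line is the mean and the bar the SD (n = 3 each). In every panel the 3 SETD4 OE points lie below the 3 control points, as for Npm1 at 93.6 to 96.04 against 217.1 to 232.5 FPKM.

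Subunits of RNA polymerase I fell less than the snoRNP genes by median (-0.68 for 7 subunits, -1.17 for box C/D and -1.10 for box H/ACA); the difference between groups of genes was not tested. Polr1a, the largest subunit, was at 5.00, 5.59 and 5.34 FPKM in SETD4 OE, against 10.2, 10.46 and 10.1 FPKM in control. Polr1b, the next in size and with Polr1a the seat of the active site, was at 3.84, 3.91 and 3.92 FPKM in SETD4 OE, against 7.83, 7.84 and 9.13 FPKM in control. The groups of both genes were well apart, with log2 fold changes of -0.83 for Polr1a and -0.92 for Polr1b (SE 0.06 and 0.07, adjusted p = 2.693e-05 and 4.481e-05, limma). Polr1e fell by 0.81 on the log2 scale. Its span overlaps Fbxo10 on the opposite strand by 2319 bases, with Fbxo10 at 7.78 FPKM in SETD4 OE and 5.03 FPKM in control. Polr1c and Polr1d, which RNA polymerase III also uses, had log2 fold changes of -0.68 and -0.56.

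The small subunit gene Polr1h, whose product takes part in RNA cleavage by the enzyme, did not pass. It was at 16.3, 16.3 and 21.8 FPKM in SETD4 OE, against 16.7, 21.4 and 21.1 FPKM in control, and the groups overlapped (log2 fold change -0.12, SE 0.14, adjusted p = 0.480, limma; positive with 4 other scalings). With a length of 819 bases it was the shortest member, and it rested on at least 208 reads in each library. Within a library, where scaling plays no part, the ratio of Polr1h to Polr1a was 3.42 ± 0.594 in SETD4 OE and 1.92 ± 0.247 in control (exact permutation test, two-sided, p = 0.1, the smallest that 3 against 3 can give; adjusted over 6 such ratios p = 0.12). Those 6 pairs were picked after the values were seen. Polr1f, which was called lower (log2 fold change -0.33), lost its call with 3 of the scalings tried. Cd3eap, an RNA polymerase I subunit gene under an older symbol that the naming rule does not match, was at 7.12, 7.31 and 7.73 FPKM in SETD4 OE, against 7.11, 12.3 and 11.9 FPKM in control, and did not pass (adjusted p = 0.0852, limma).

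For the small subunit, 23 of 26 genes fell, 1 rose and 2 did not pass, with a median log2 fold change of -0.67. Rrp9, a protein of the U3 snoRNP that starts processing of the precursor, was at 8.14, 6.43 and 7.90 FPKM in SETD4 OE, against 15.4, 21.4 and 20.9 FPKM in control (log2 fold change -1.25, SE 0.14, adjusted p = 0.0002405, limma). Bysl, which acts in 40S maturation, was at 7.30, 6.88 and 7.62 FPKM in SETD4 OE, against 14.2, 17.2 and 15.6 FPKM in control, with a log2 fold change of -1.01. In neither gene did the groups overlap. Both genes share bases with a neighbour on the opposite strand, Rrp9 with Parp3 (22.8 FPKM in SETD4 OE and 14.8 FPKM in control) and Bysl with Ccnd3 (5.27 FPKM in SETD4 OE and 8.07 FPKM in control), so part of their reads could belong to the neighbour. Tsr1, a late 40S factor, had a log2 fold change of -0.87. The Mphosph10, Imp3 and Imp4 proteins form a complex on U3, and their genes had log2 fold changes of -0.65, -0.40 and -0.40.

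Nob1 and Ltv1, genes of later 40S steps, had log2 fold changes of -0.67 and -0.68. Nob1, the endonuclease that makes the final end of the small subunit rRNA, was at 8.62 ± 0.251 FPKM in SETD4 OE and 14.4 ± 1.71 FPKM in control. Ltv1, an assembly factor released late from the 40S precursor, was at 11.5 ± 1.501 FPKM in SETD4 OE and 19.0 ± 1.603 FPKM in control. The smallest fall that was called was Utp6 (log2 fold change -0.28, adjusted p = 0.0193, limma), and it was lost under the replicate block and with 4 other scalings, where its adjusted p reached 0.282. Utp23 was at 4.34, 3.51 and 4.37 FPKM in SETD4 OE, against 2.98, 4.31 and 3.78 FPKM in control. Utp25 was at 2.92, 3.32 and 3.25 FPKM in SETD4 OE, against 2.74, 2.95 and 3.11 FPKM in control. Both overlapped between the groups and did not pass (adjusted p = 0.439 and 0.379, limma).

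Utp14b was the only member of the 62 that rose. It is a retrogene copy of the X-linked Utp14a and is known in mouse for a need in spermatogenesis (chromosome 1, 78635755 to 78649229, plus strand). Utp14b was at 6.77, 7.43 and 6.44 FPKM in SETD4 OE, against 3.496, 2.99 and 3.11 FPKM in control (log2 fold change 0.91, SE 0.08, adjusted p = 6.574e-05, limma). Utp14a moved the other way, at 6.95, 7.21 and 6.74 FPKM in SETD4 OE, against 9.21, 9.11 and 9.01 FPKM in control (log2 fold change -0.34). The ratio of Utp14b to Utp14a within a library was 0.987 ± 0.0390 in SETD4 OE and 0.351 ± 0.0263 in control (exact permutation test, two-sided, p = 0.1, adjusted p = 0.12, n = 3 each).

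The whole span of Utp14b lies inside Acsl3, a long-chain acyl-CoA synthetase gene on the same strand, over 13475 bases. Acsl3 was at 46.1, 46.8 and 43.7 FPKM in SETD4 OE, against 20.3, 18.2 and 19.4 FPKM in control (log2 fold change 1.20). In the mouse GENCODE M21 annotation, which is of the earlier build GRCm38, 244 of the 7679 exonic bases of Utp14b (3.18%) are shared with exons of Acsl3. The ratio of Utp14b to Acsl3 was 0.151 ± 0.00683 in SETD4 OE and 0.166 ± 0.00603 in control (exact permutation test, two-sided, p = 0.1, adjusted p = 0.12). How much of the Utp14b value came from reads of Acsl3 was not tested.

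**Figure D3:**
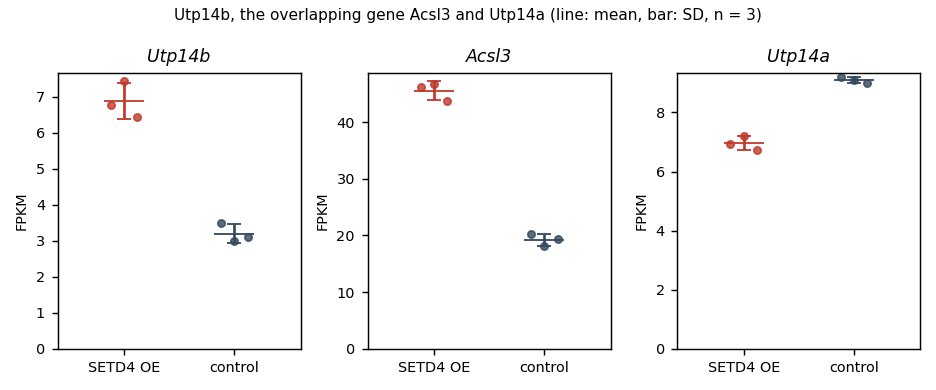
FPKM in each library for Utp14b, for Acsl3, whose span encloses it, and for its parent gene Utp14a, SETD4 OE left of control; points are libraries, the line is the mean and the bar the SD (n = 3 each). Utp14b and Acsl3 are higher in all 3 SETD4 OE libraries, and Utp14a is lower in all 3.

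For the large subunit, 14 of 15 genes fell and 1 did not pass, with a median log2 fold change of -0.71. Nop2, a methyltransferase of the large subunit rRNA, was at 15.8, 14.8 and 16.6 FPKM in SETD4 OE, against 34.9, 39.8 and 38.8 FPKM in control (log2 fold change -1.21, SE 0.07, adjusted p = 1.331e-05, limma). Rrp1b was at 4.33, 4.36 and 4.43 FPKM in SETD4 OE, against 10.9, 10.4 and 11.3 FPKM in control (log2 fold change -1.14). Its relative Rrp1 fell less, with a log2 fold change of -0.54. The ratio of Rrp1 to Rrp1b within a library was 14.9 ± 0.756 in SETD4 OE and 8.77 ± 0.961 in control (exact permutation test, two-sided, p = 0.1, adjusted p = 0.12, n = 3 each). Nop16 was at 10.9, 8.37 and 13.5 FPKM in SETD4 OE, against 20.1, 26.3 and 25.01 FPKM in control, and spread widely within both groups without overlap.

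Bop1, Pes1 and Wdr12 encode the partners of the PeBoW complex, which processes the large subunit precursor. Bop1 was at 18.4, 18.4 and 20.4 FPKM in SETD4 OE, against 37.6, 40.2 and 39.4 FPKM in control. Pes1 was at 22.3, 22.04 and 25.8 FPKM in SETD4 OE, against 30.8, 37.9 and 34.8 FPKM in control. Wdr12 was at 2.62, 2.66 and 2.64 FPKM in SETD4 OE, against 4.55, 4.39 and 4.48 FPKM in control. All 3 fell with no overlap between the groups, and their log2 fold changes were -0.998, -0.54 and -0.59. Bop1 overlaps Scx on the opposite strand by 2007 bases, where Scx was at 2.08 FPKM in SETD4 OE and 1.24 FPKM in control.

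Gnl3 encodes nucleostemin, a nucleolar GTPase first described in stem cells. It was at 8.41, 7.96 and 7.35 FPKM in SETD4 OE, against 14.8, 13.1 and 12.96 FPKM in control (log2 fold change -0.71, adjusted p = 0.0001636, limma). Its relatives Gnl3l and Gnl2 had smaller log2 fold changes of -0.53 and -0.38. Nop53, a late 60S factor, was the large subunit gene that did not pass. It was at 24.7, 23.7 and 27.1 FPKM in SETD4 OE, against 21.3, 30.9 and 27.9 FPKM in control, with all SETD4 OE values inside the control range (log2 fold change -0.07, SE 0.13, adjusted p = 0.670, limma). Its direction depended on the libraries and the scaling: it was -0.22 without control replicate 1 (adjusted p = 0.0501), 0.04 without control replicate 2 and 0.11 with quantile normalization.

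By level, the highest members in SETD4 OE were Npm1 (94.5 ± 1.35 FPKM), Rrp1 (65.2 ± 3.35), Nhp2 (50.9 ± 9.58) and Ncl (40.1 ± 0.728). In control they were Npm1 (226 ± 7.95 FPKM), Nhp2 (123 ± 22.5), Rrp1 (95.2 ± 7.86) and Ncl (82.7 ± 2.63), and the order of Nhp2 and Rrp1 thus differed between the groups. Over the 62 members the mean levels in the groups had a Spearman rho of 0.946. Members with a higher control level had somewhat lower log2 fold changes (rho = -0.35), and gene length showed little relation to them (rho = 0.04). These are descriptions over genes that share libraries, and the relation of fold change to control level has the control values on both sides. The scale of log2(FPKM + 1) also shrinks the fold changes of low members, which bears on the same relation.

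**Figure D4:**
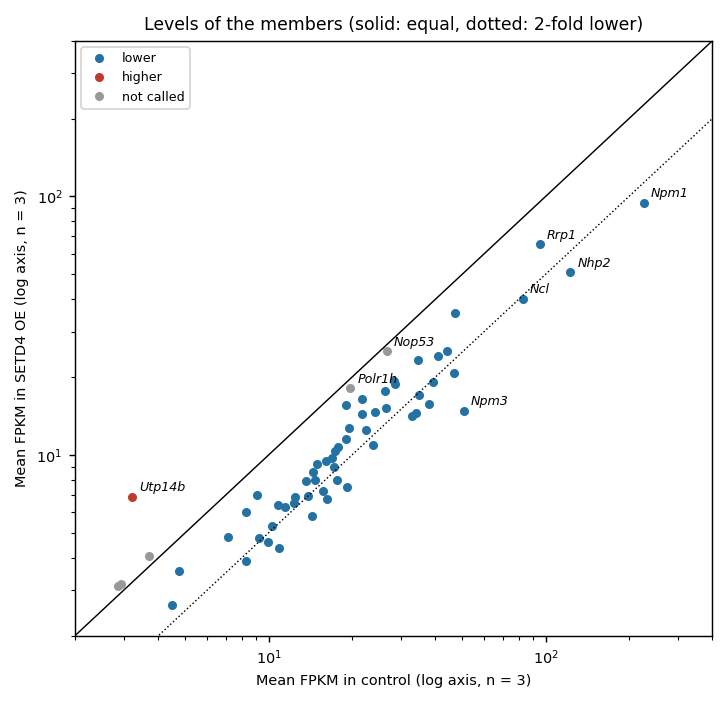
Mean FPKM of each member in SETD4 OE (vertical, log axis) against control (horizontal, log axis), n = 3 each; the solid line marks equal levels and the dotted line a level 2-fold lower in SETD4 OE. Most members lie between the lines or under the dotted one, and Utp14b lies above the solid line.

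Spread within a group was tied to particular libraries. Control replicate 1 had the lowest control value in 36 of 62 members (58.1%), against 42.6% of all tested genes. Among the 13 members shorter than 2500 bases it was the lowest in 11, against 50.4% of tested genes of such length. Control replicate 2 had the highest control value in 40 members, and SETD4 OE replicate 3 had the highest SETD4 OE value in 36. For these libraries the share over all tested genes was not counted. Without control replicate 1 the members' counts were the same, 56 lower and 1 higher, and their median log2 fold change was -0.77.

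Of the members, 8 enclose 22 snoRNA genes on their own strand, in the way many snoRNAs are cut from introns of genes for ribosome production. Nop56 holds 5 of them, Nop58 holds 4, Ncl, Gnl3 and Wdr43 hold 3 each, Tsr1 holds 2, and Dkc1 and Nop53 hold 1 each. Of these 8 host genes 7 fell, and Nop53 was the exception. Among all members 90.3% were called lower, and among all tested genes 33.9%, so the hosts were close to the members as a whole. The snoRNAs themselves are too short for reliable FPKM in such libraries and are not described. Overlap with another gene at a mean of at least 1 FPKM was found for 15 members, with no strand setting given. Among the other 47 members 42 fell, none rose at adjusted or unadjusted p under 0.05 (limma), and the median log2 fold change was -0.68.

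The promoters of the members were searched because the genes moved together. RefSeq promoter sequences (GRCm38.p6, an earlier build than the mm39 of the tables, 250 bases before to 50 after a start site) matched 48 of the 62 members by symbol. The hexamer CACGTG, the E-box that MYC-MAX dimers bind, reads the same on both strands. It was present in 12 of 48 members (25%), in 15 of 88 other factors of the pathway (17.0%), in 1093 of 9051 tested protein-coding genes with a promoter (12.1%), and in 8.09% of all 27025 symbols. The heptamer CCGGAAG, the core bound by ETS factors, was counted on both strands and present in 17 of 48 members (35.4%), in 44.3% of the other factors, in 21.0% of tested protein-coding genes and in 9.93% of all symbols. TATAAA, also on both strands, was found in 3 of 48 members (6.25%), in 4 of 88 other factors, in 8.26% of tested protein-coding genes and in 15.7% of all symbols. The palindrome bound by NRF1 was in none of the 48, in 4 of 88 other factors, in 2.50% of tested protein-coding genes and in 1.07% of all symbols.

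In 6 members a CACGTG lay wholly before the start site, and 50 bases around it are shown to let the sites be compared between genes that fell, did not pass and rose. Capitals mark the motif, and each sequence runs 5′ to 3′ on the strand of its gene.
Nop2, chr6:125131801-125131850, plus strand: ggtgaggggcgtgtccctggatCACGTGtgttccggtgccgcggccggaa
Utp18, chr11:93885767-93885816, minus strand: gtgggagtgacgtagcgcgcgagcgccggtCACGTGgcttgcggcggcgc
Rrp7a, chr15:83122982-83123031, minus strand: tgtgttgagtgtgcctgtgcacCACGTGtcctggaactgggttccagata
Imp4, chr1:34439686-34439735, plus strand: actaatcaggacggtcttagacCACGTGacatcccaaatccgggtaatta
Utp25, chr1:193130184-193130233, minus strand: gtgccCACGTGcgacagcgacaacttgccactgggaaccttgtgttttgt
Utp14b, chr1:78658355-78658404, plus strand: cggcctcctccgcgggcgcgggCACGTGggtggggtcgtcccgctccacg

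The motif stood 54 bases before the start site in Nop2, 14 in Utp18, 57 in Utp14b, 115 in Imp4, 202 in Rrp7a and 239 in Utp25. Their changes were unlike, with log2 fold changes of -1.21 for Nop2, -0.73 for Utp18, -0.71 for Rrp7a and -0.40 for Imp4, which fell, of 0.08 for Utp25, which did not pass, and of 0.91 for Utp14b, which rose. Members with the motif anywhere in the window had a median log2 fold change of -0.72 (12 genes), and those without it -0.80 (36 genes). In mm39 Utp14b starts at 78635755 and Acsl3, which also rose, at 78635542 on the same strand. Whether the site listed for Utp14b belongs to Utp14b or to Acsl3 was not tested. A match of letters is not a binding site, and it was not tested against binding.

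Other factors of the pathway, 103 genes outside the naming rule, moved the same way. Of these 88 (85.4%) fell, 1 rose and 14 did not pass, with a median log2 fold change of -0.56. Over all tested genes 33.9% were called lower, and the list was chosen with earlier results of these data known. By step, 38 of 43 listed genes for the 60S subunit, 26 of 30 for the 40S subunit, 12 of 12 listed for the exosome and RNA trimming and 7 of 9 for snoRNP assembly fell. The lowest log2 fold changes were those of Ppan (-1.25), Mrto4 (-1.19) and Noc2l (-1.14), all of which act in 60S assembly. Ppan was at 5.14, 4.85 and 5.62 FPKM in SETD4 OE, against 13.1, 14.7 and 13.6 FPKM in control. The smallest changes, none of which passed, were those of Taf1c (0.08), Ddx55 (-0.11) and Naf1 (-0.12).

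Factors that drive RNA polymerase I were divided, with 5 of 9 lower, 1 higher and 3 not passing. Rrn3, which brings the enzyme to the promoter, was at 17.7, 19.6 and 18.5 FPKM in SETD4 OE, against 31.6, 30.1 and 28.8 FPKM in control (log2 fold change -0.67). Tcof1, a nucleolar partner of the enzyme, had a log2 fold change of -0.79. Myc, a transcription factor known to activate many ribosome biogenesis genes, was at 12.8, 13.1 and 13.3 FPKM in SETD4 OE, against 24.3, 25.1 and 22.6 FPKM in control (log2 fold change -0.83, SE 0.06, adjusted p = 2.658e-05, limma). Ubtf, which binds ribosomal DNA, fell by 0.27 on the log2 scale (adjusted p = 0.0296, limma), a call lost in 11 alternatives, among them those without control replicate 2 or 3 or without SETD4 OE replicate 1 or 2 (adjusted p = 0.0692 to 0.0903; range over all alternatives 0.0091 to 0.250). Ttf1, which ends transcription of ribosomal DNA, was the factor that rose, at 4.85, 4.85 and 5.07 FPKM in SETD4 OE, against 3.66, 3.96 and 3.43 FPKM in control (log2 fold change 0.34, adjusted p = 0.003575, limma).

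**Figure D5:**
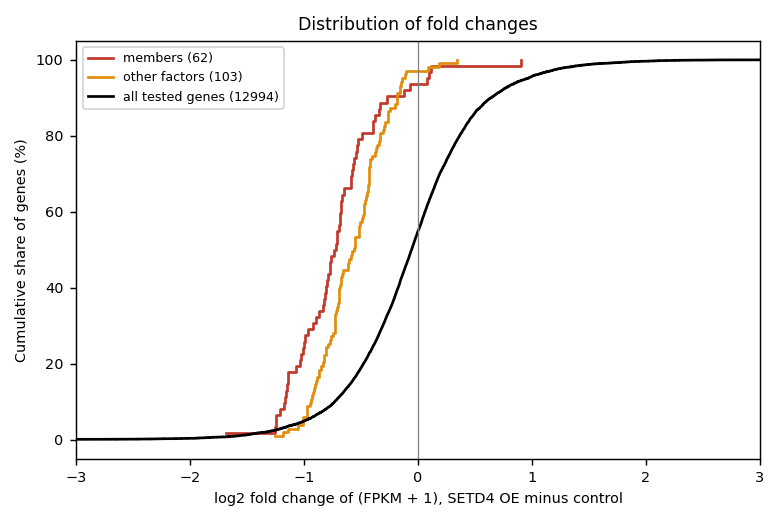
Cumulative share of genes (%) by log2 fold change of (FPKM + 1), SETD4 OE minus control, for the 62 members, the 103 other factors and all 12994 tested genes; the ends of the curve of all genes run past the axis. The curves of both pathway lists lie left of the curve of all genes, with medians of -0.73, -0.56 and -0.06.

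Genes of cycling cells moved with the members. The summed level of 6 such genes (Mki67, Top2a, Mcm2, Mcm5, Ccnb1 and Rrm2) was 45.6 to 47.4 FPKM in SETD4 OE and 198.9 to 203.1 FPKM in control, and all 6 fell. Summed ependymal markers were at 34.9 to 46.7 FPKM in SETD4 OE and 16.4 to 19.7 FPKM in control, and pericyte and fibroblast markers at 6.81 to 7.70 FPKM in SETD4 OE and 2.30 to 2.35 FPKM in control. The largest part of the ependymal sum was Foxj1, at 35.0 ± 5.1 FPKM in SETD4 OE and 15.8 ± 2.1 FPKM in control. Col1a1, of the pericyte and fibroblast list, was at 3.80 ± 0.49 FPKM in SETD4 OE and 0.75 ± 0.11 FPKM in control. Endothelial markers summed to 0.824 to 1.16 FPKM in SETD4 OE and 3.69 to 4.06 FPKM in control (Flt1 alone at 0.618 ± 0.0638 FPKM in SETD4 OE and 3.43 ± 0.148 FPKM in control). Neuroblast markers summed to 25.8 to 28.6 FPKM in SETD4 OE and 26.6 to 28.8 FPKM in control, a sum of opposite moves: Tubb3 was higher (8.69 ± 1.31 FPKM in SETD4 OE and 5.66 ± 0.665 FPKM in control), Sox11 was lower (9.97 ± 0.289 FPKM in SETD4 OE and 14.1 ± 0.265 FPKM in control), Dlx2 did not pass, and Dcx, under the filter, was at 1.45 ± 0.112 FPKM in SETD4 OE and 0.533 ± 0.0994 FPKM in control. Stem cell and astroglial markers were divided as well, with 3 of 6 higher and 3 lower. Gfap was at 1388 ± 42.8 FPKM in SETD4 OE and 321 ± 14.6 FPKM in control, and Nes at 42.7 ± 5.39 FPKM in SETD4 OE and 116.5 ± 16.0 FPKM in control. Sox2 and Slc1a3 were higher (log2 fold changes 0.23 and 0.32), and Fabp7 and Vim lower (-0.46 and -0.34). The part of these shifts in the lower ribosome biogenesis genes was not tested.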

How the data were processed

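RNA-seq libraries labelled SETD4 OE (3) and control (3) were analysed. HISAT2 2.0.5 and the build mm39 are named in the submitters' processing notes. Which program counted reads, with what strand setting and gene models, is not given in the sources used here. In the deposited tables the authors gave a value per gene and library that behaves as FPKM, with gene length and coordinates, per the file headers. Values times gene length were whole multiples of 1 read (tolerance 0.05 reads) in 100% of cases, which gave recovered reads. Groups and replicate numbers came from the sample titles.

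Values were compared as log2(FPKM + 1) with limma 3.58.1 (R 4.3.3), with a mean-variance trend, two-sided, for 12994 genes whose mean reached 1 FPKM; p-values were adjusted by Benjamini-Hochberg over all of them, and called under 0.05. Fold changes on this scale understate those of low genes. The step was tested on simulated reads. Members, role groups, the list of other factors and the rule for named genes (in each role group the 3 largest changes and the smallest, every member not called or higher, and fixed key genes) were chosen with earlier results of these data known; further genes were named after their values were seen. A chi-square test of recovered reads showed no library deposited more than once (statistic per degree of freedom 3.68 to 14.8 within groups). Figures were drawn with matplotlib 3.10.9. Markers of the oligodendrocyte lineage are not reported here.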

Additional observations from a re-analysis of the deposited data

How the results depend on the processing

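Of the 56 members called lower, 54 kept the call in every alternative that tested them; the exceptions were Polr1f and Utp6. The count of lower members was 54 to 56, and 42 of 47 without members that overlap an expressed gene. The call of Utp14b was kept in all of them, except that it is itself among the 15 overlapping members; with these left out (an alternative chosen after seeing the data) 0 members were higher, at adjusted or unadjusted p, by limma. Other scalings moved the median of all tested genes (-0.06 as reported) up to 0.09, and the members' median to -0.60 with equal sums, -0.59 with the upper quartile, -0.61 with quantile normalization and -0.57 with equal sums without mitochondrial genes. With the last of these, 3079 of all tested genes were lower and 4514 higher, where the test as reported gave 4406 and 3384. A mean of at least 5 FPKM left 1881 higher of 8057 genes and 0 higher among the other factors, for which fewer genes were tested; equal sums, the upper quartile and equal sums without mitochondrial genes gave 3 higher in each case.

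Directions turned only for genes that had not passed. Nop53 was at 0.0592 with equal sums, 0.0754 with the upper quartile, 0.108 with quantile normalization and 0.0959 without mitochondrial genes, and at -0.22 to 0.0404 when single libraries were left out. Polr1h was at 0.00775, 0.0237, 0.0370 and 0.0439 with these 4 scalings. Ddx55 was at 0.0128 with the upper quartile and 0.0301 without mitochondrial genes, and Naf1 at 0.00735, 0.0229 and 0.0429 with equal sums, the upper quartile and without mitochondrial genes. Taf1c passed as higher with those 3 (0.19, 0.21 and 0.22). The causes were not tested.

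Replicate numbers are shared between groups, but same-numbered libraries did not deviate together (r = -0.07, -0.23 and 0.08 for numbers 1, 2 and 3). With the replicate block 55 members were lower, 1 was higher and 6941 genes were called in all. Depth was lowest for Polr1has, with 67 to 98 reads per library.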
